A study of Mus musculus with 4 samples.

Results

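The 39 genes described here encode alpha chains of the collagens, the main structural proteins of the extracellular matrix, and were followed through the 5-hydroxymethylcytosine (5hmC) bins altered without LSH. A member's bins were those listed 5 kb bins that overlapped its body or the 5 kb upstream of its start, and the 39 symbols were all found among the 26031 gene models of the mm9 GENCODE M1 annotation. The members cover 11 fibrillar, 9 network, 9 FACIT and 10 other collagens. The samples were LSH knockout and wild-type mouse embryonic stem (ES) cells, grown with LIF, and LSH knockout and wild-type mouse embryonic fibroblasts (MEFs), with 1 library for each of the 4 groups. LSH, the SNF2-family remodeler encoded by Hells, is needed for normal DNA methylation in mouse cells. The labels do not give the derivation of the knockout lines, the number of clones or embryos behind them or their strain. DNA fragments with 5hmC were glucosylated, biotinylated and captured before sequencing.

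The data are 2 lists of positions, 1 for ES cells and 1 for MEFs, where the authors found 5hmC to differ between LSH knockout and wild-type cells. They hold no direction, level, fold change or p-value, so a listed bin is called altered, and nothing here says whether 5hmC was higher or lower in the knockout. On chromosomes 1 to 19 and X the lists held 8545 ES bins and 8972 MEF bins. The read depth is unknown, there is no replicate error, and the labelled cell types could not be checked against marker genes. Brackets give exact 95% binomial intervals, which cover counting error over genes or bins. Genes and bins are not replicates, and neighbouring bins of a gene are not independent. A difference between the 2 lists cannot be told apart from a difference in how each list was made.

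Collagen chains carry a repeat of glycine followed by 2 further residues, and chains wind around one another into a helix. Fibrillar collagens such as types I, II, III and V form the banded fibrils of connective tissue and cartilage. Network collagens include type IV, the scaffold of basement membranes, and FACITs (fibril-associated collagens with interrupted helices) sit on the fibril surface. The other members form beaded filaments (type VI) and anchoring fibrils (type VII), span the plasma membrane (types XIII, XVII, XXIII and XXV), or carry endostatin-like domains (types XV and XVIII, the multiplexins). Fibroblasts are the main collagen-making cells of connective tissue. 5hmC is formed from 5-methylcytosine by the TET enzymes, mostly at CpG dinucleotides, and gene bodies are a common place for it.

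The bins found at collagen genes are shown first through their sequence. Altered bins on both lists lay at 2 members, 2 at Col4a2 (type IV, basement membrane) and 2 at Col17a1 (type XVII, a transmembrane collagen of the hemidesmosome). Over chromosomes 1 to 19 and X, 406 of the 8545 ES bins were also on the MEF list, against these 4 of the 16 ES bins of the family. The 8545 bins include bins outside genes. The 4 bins come from 2 genes and those of Col17a1 adjoin, so they are not independent, and the difference was not tested. From each of these 4 bins the 300 bases with the most CpG outside annotated untranslated regions are printed, because the modification assayed sits at CpG. They are followed by a stretch chosen the same way from the unlisted bin that holds the starts of both Col4a1 and Col4a2, which was chosen for contrast after its values were seen. All are mm9, plus strand, 5′ to 3′, with each CpG in capitals. The first Col4a2 stretch, chr8:11326681-11326980, lies in an intron and has 7 CpG. The second, chr8:11400920-11401219, has 11 CpG and includes 72 exonic bases, of exon 7. Exons are counted from the 5′ end in the coding transcript with the most exons. Col17a1 is on the minus strand, and its stretches are chr19:47743637-47743936, with 12 CpG and 209 exonic bases, and chr19:47745079-47745378, with 10 CpG and 0 exonic bases. The unlisted stretch, chr8:11312166-11312465, has 26 CpG and lies in the body of Col4a1 beside both starts, with 0 exonic bases.
Col4a2 intron, on both lists: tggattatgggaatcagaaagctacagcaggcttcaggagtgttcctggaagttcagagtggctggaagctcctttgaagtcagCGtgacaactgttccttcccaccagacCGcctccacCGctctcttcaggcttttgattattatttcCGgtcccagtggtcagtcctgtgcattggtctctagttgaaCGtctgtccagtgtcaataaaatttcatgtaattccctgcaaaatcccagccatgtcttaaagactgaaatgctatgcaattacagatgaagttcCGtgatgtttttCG
Col4a2 exon 7, on both lists: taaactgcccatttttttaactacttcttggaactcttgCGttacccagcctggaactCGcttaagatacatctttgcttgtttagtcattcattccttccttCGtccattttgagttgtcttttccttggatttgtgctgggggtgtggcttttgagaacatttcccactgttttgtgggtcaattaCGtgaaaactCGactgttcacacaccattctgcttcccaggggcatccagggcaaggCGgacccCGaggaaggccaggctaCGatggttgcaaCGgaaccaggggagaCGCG
Col17a1 exon 17, on both lists: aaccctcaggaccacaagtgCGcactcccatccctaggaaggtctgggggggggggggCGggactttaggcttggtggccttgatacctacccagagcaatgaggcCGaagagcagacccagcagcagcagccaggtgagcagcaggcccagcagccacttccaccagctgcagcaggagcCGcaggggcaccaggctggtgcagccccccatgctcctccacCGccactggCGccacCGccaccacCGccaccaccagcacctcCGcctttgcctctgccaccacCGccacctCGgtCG
Col17a1 intron, on both lists: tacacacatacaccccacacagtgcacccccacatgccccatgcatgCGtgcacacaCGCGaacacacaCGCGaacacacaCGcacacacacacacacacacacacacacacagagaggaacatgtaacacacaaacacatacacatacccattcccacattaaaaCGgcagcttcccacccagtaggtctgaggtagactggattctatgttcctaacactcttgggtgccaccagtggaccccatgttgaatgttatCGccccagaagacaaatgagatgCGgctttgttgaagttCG
Col4a1 body in the bin of both starts, unlisted: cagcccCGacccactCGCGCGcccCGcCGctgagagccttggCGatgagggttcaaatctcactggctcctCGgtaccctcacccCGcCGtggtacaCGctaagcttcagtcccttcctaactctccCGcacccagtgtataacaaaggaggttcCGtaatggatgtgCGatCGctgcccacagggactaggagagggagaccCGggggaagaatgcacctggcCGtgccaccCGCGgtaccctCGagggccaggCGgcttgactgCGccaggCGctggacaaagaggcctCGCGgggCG

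The unlisted stretch meets a common CpG island measure (GC content of at least 50% and an observed over expected CpG ratio of at least 0.6), with 65.3% GC and a ratio of 0.815. None of the 4 stretches from bins on both lists does. The exon 7 stretch of Col4a2 has a ratio of 0.619 but 48.7% GC, and the exon 17 stretch of Col17a1 has 68.0% GC but a ratio of 0.355. The 2 intronic stretches have ratios of 0.441 at Col4a2 and 0.571 at Col17a1. Over the 27 listed bins of the 5 members described in full below, the CpG-richest stretch held a median of 10 CpG (range 5 to 15). It met the island measure in 2 bins, 1 each at Col14a1 and Col17a1. The only unlisted bin measured was the 1 chosen for contrast, so listed and unlisted bins cannot be compared by this measure.

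Of the 39 collagen genes, 10 had an altered bin in ES cells and 16 in MEFs. The share was 25.6% in ES cells [13.0% to 42.1%], where 19.8% of all 26031 genes had one, and 41.0% in MEFs [25.6% to 57.9%], where 14.1% of all genes had one. Collagen genes are long, with a median of 114 kb against 13.6 kb for all genes, so genes of like length are the closer comparison. The expected number, from the share of called genes in each member's length group (all genes in 10 equal groups), was 14.2 in ES cells and 12.4 in MEFs. The observed counts were therefore 0.705 times the ES expectation and 1.29 times the MEF expectation, and both expected shares (36.4% and 31.7%) lay inside the intervals of the observed ones. A departure from genes of like length was thus not detectable in the count of genes in either cell type.

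Counted by bins, the cell types stood further apart. The windows of the members held 994 bins, of which 16 were altered in ES cells and 37 in MEFs. This was 1.61% in ES cells [0.923% to 2.6%], against 2.58% of the 240334 bins in the windows of all genes, and 3.72% in MEFs [2.63% to 5.09%], against 2.38%. The median number of bins per gene was 0 in both cell types, for the members and for all genes alike. The mean was 0.41 ES bins and 0.949 MEF bins per collagen gene, against 0.28 ES bins and 0.247 MEF bins per gene over all genes. These means take no account of length. Genes of like length to Col4a1, which at 114 kb has the median length of the members, had a mean of 0.711 ES bins and 0.674 MEF bins. The MEF interval excludes the share of all gene windows, and the ES interval includes it. Neither share was set against the bins of genes of like length, so a departure from those was not shown. The intervals take bins as independent and are too narrow where bins cluster. Of the 37 MEF bins 7 touched the bin before, and of the 16 ES bins 2 did. Col4a2, Col14a1 and Col17a1 together held 6 of the 16 ES bins and 17 of the 37 MEF bins. Without these 3 genes, a comparison chosen after the values were seen, the other 36 members had 10 ES bins (1.1% of their bins) and 20 MEF bins (2.19%). Leaving out the members with most MEF bins lowers the MEF share by construction, and the 2.38% of all gene windows kept such genes.

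**Figure D1:**
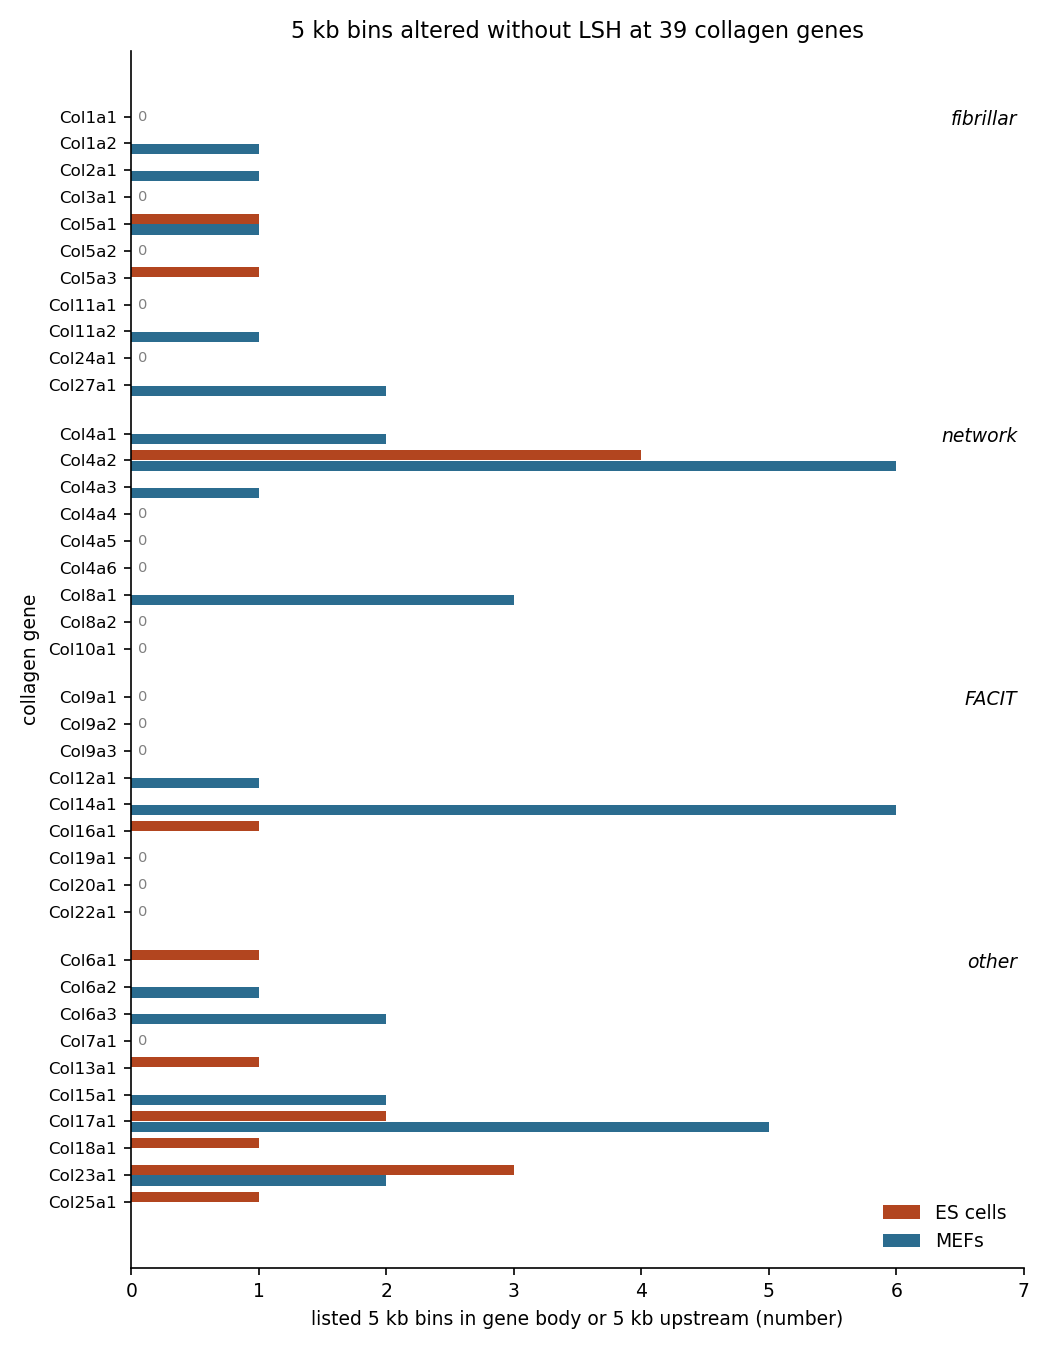
Number of altered 5 kb bins in the body or 5 kb upstream of each of the 39 collagen genes, by class, with ES cells (upper bar) and MEFs (lower bar); a grey 0 marks the 17 genes with none on either list. No member has more than 4 ES bins, while Col4a2 and Col14a1 reach 6 MEF bins and Col17a1 reaches 5.

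Both lists had bins at 4 of the 39 members (Col5a1, Col4a2, Col17a1 and Col23a1), against 7.07 expected from genes of like length. Over all genes 5.9% had bins on both lists. No interval was computed for this count, so a departure from genes of like length was not shown. Another 6 members had ES bins only (Col5a3, Col16a1, Col6a1, Col13a1, Col18a1 and Col25a1), and 12 had MEF bins only (Col1a2, Col2a1, Col11a2, Col27a1, Col4a1, Col4a3, Col8a1, Col12a1, Col14a1, Col15a1, Col6a2 and Col6a3). Over all genes the balance ran the other way, with 3629 genes in ES cells only, 2126 in MEFs only and 1535 in both. This takes no account of length. From genes of like length the expected numbers with a bin, 14.2 in ES cells and 12.4 in MEFs, are closer to even, and the member counts are small. The remaining 17 members had no listed bin.

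Among the fibrillar collagens, 2 of 11 genes had an ES bin (3.73 expected from genes of like length) and 5 of 11 had a MEF bin (3.13 expected). The type I genes, whose chains make up most of the collagen of connective tissue, differed. Col1a2 had 0 ES bins and 1 MEF bin, over exons 30 to 33 of 52 (chromosome 6, 4475001 to 4480000), and Col1a1 had 0 in either list. Col3a1, which encodes the chain of type III collagen, and its neighbour Col5a2 on chromosome 1 also had 0, with 5.18 and 4.67 CpG per kb over their windows, the lowest values among the fibrillar genes. The cartilage collagen gene Col2a1 had 1 MEF bin with 15 exons, 19 to 33 of 54 (chromosome 15, 97815001 to 97820000), at 19.6 CpG per kb. Col11a2, another cartilage chain, had 1 MEF bin over its last exons, 59 to 66 of 66 (chromosome 17, 34200001 to 34205000). Both bins are in the densest of 10 equal groups of the genome's bins by CpG density.

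Col5a1, whose product helps to set fibril diameter, had 1 bin on each list at opposite ends of its 153 kb. The ES bin covered the last exon (chromosome 2, 27890001 to 27895000), and the MEF bin lay in the first part of the gene, 15.6 kb from its start and in an intron (chromosome 2, 27755001 to 27760000). The ES bin also lies in the window of Gm13372. Col5a3 had 1 ES bin over exons 28 to 31 of 67 (chromosome 9, 20595001 to 20600000). Col27a1 had 2 MEF bins, 17.5 kb and 62.5 kb from its start, which touch exon 4 and exons 17 to 19 of 61. Col11a1 and Col24a1, at 190 kb and 260 kb the longest fibrillar genes, had 0 bins on either list, although 50.6% and 51.4% of genes of like length (within 25%) had an ES bin and 48.4% and 48.8% had a MEF bin.

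In the network class, 1 of 9 genes had an ES bin (3.59 expected) and 4 of 9 had a MEF bin (3.39 expected). The bins of the class were concentrated at the head-to-head pair Col4a1 and Col4a2, which encode the widespread chains of basement membrane collagen. Col4a2 (chromosome 8, 11312805 to 11449287, plus strand) had 4 ES bins and 6 MEF bins, 8 distinct bins of the 29 in its window. As many ES bins were found in 44 of the 1204 genes of like length, and as many MEF bins in 22 of them. Col4a1, on the other side of the shared start, had 0 ES bins and 2 MEF bins, 1 in an intron 35.3 kb from its start (chromosome 8, from 11275001) and 1 over exon 2 of 52, 45.3 kb from its start (from 11265001). The bin with the shared start, at 39.8 CpG per kb the densest in the windows of both genes, was on neither list.

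Along Col4a2, the ES bins lay mostly further into the gene than the MEF bins, with overlap. The ES bins were centred 14.7, 79.7, 89.7 and 94.7 kb from the start, the last over exons 12 to 15 of 48. The MEF bins were centred 14.7, 19.7, 44.7, 54.7, 59.7 and 89.7 kb from the start, the first 5 of them in introns and the last over exons 7 to 11. The bins at 14.7 and 89.7 kb (chromosome 8, 11325001 to 11330000 and 11400001 to 11405000) were on both lists, and the sequences printed above come from them. The last 2 of the ES bins also lie in the window of Gm15419. No altered bin was centred beyond 69.4% of the gene's length. The listed bins were not the CpG-richest of the gene, with a median of 13.5 CpG per kb against 14.6 in its unlisted bins. In the 100 kb on each side of the Col4a2 window, which on one side reaches into Col4a1, 3 of 40 bins were on the ES list and 4 on the MEF list. On chromosome 8 as a whole, 3.14% of gene-window bins were altered in ES cells and 3.01% in MEFs.

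The other type IV genes, whose chains are limited to certain basement membranes such as that of the kidney glomerulus, had 1 bin in all. It was a MEF bin in an intron of Col4a3, 59.0 kb from its start (chromosome 1, 82640001 to 82645000). Col4a4, Col4a5 and Col4a6 had 0. Col4a5 and Col4a6 lie on the X chromosome, where 0.105% of gene-window bins were altered in ES cells and 0.21% in MEFs, the lowest shares of the 20 chromosomes. Of the short-chain genes, Col8a1 (chromosome 16, 57624371 to 57754850, minus strand) had 0 ES bins and 3 MEF bins, and Col8a2 and Col10a1, the type X gene of growth plate cartilage, had 0. Col8a1 had the only promoter bin of the family (chromosome 16, 57750001 to 57755000), which holds its start and exon 1, at 10.0 CpG per kb. Its other bins, 52.3 kb and 97.3 kb into the gene (from 57700001 and from 57655001), were intronic and at 6.0 CpG per kb had the lowest CpG density of all 49 distinct bins. As many MEF bins were found in 132 of the 1262 genes of like length, and 0 bins of either list lay in the 100 kb on each side.

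**Figure D2:**
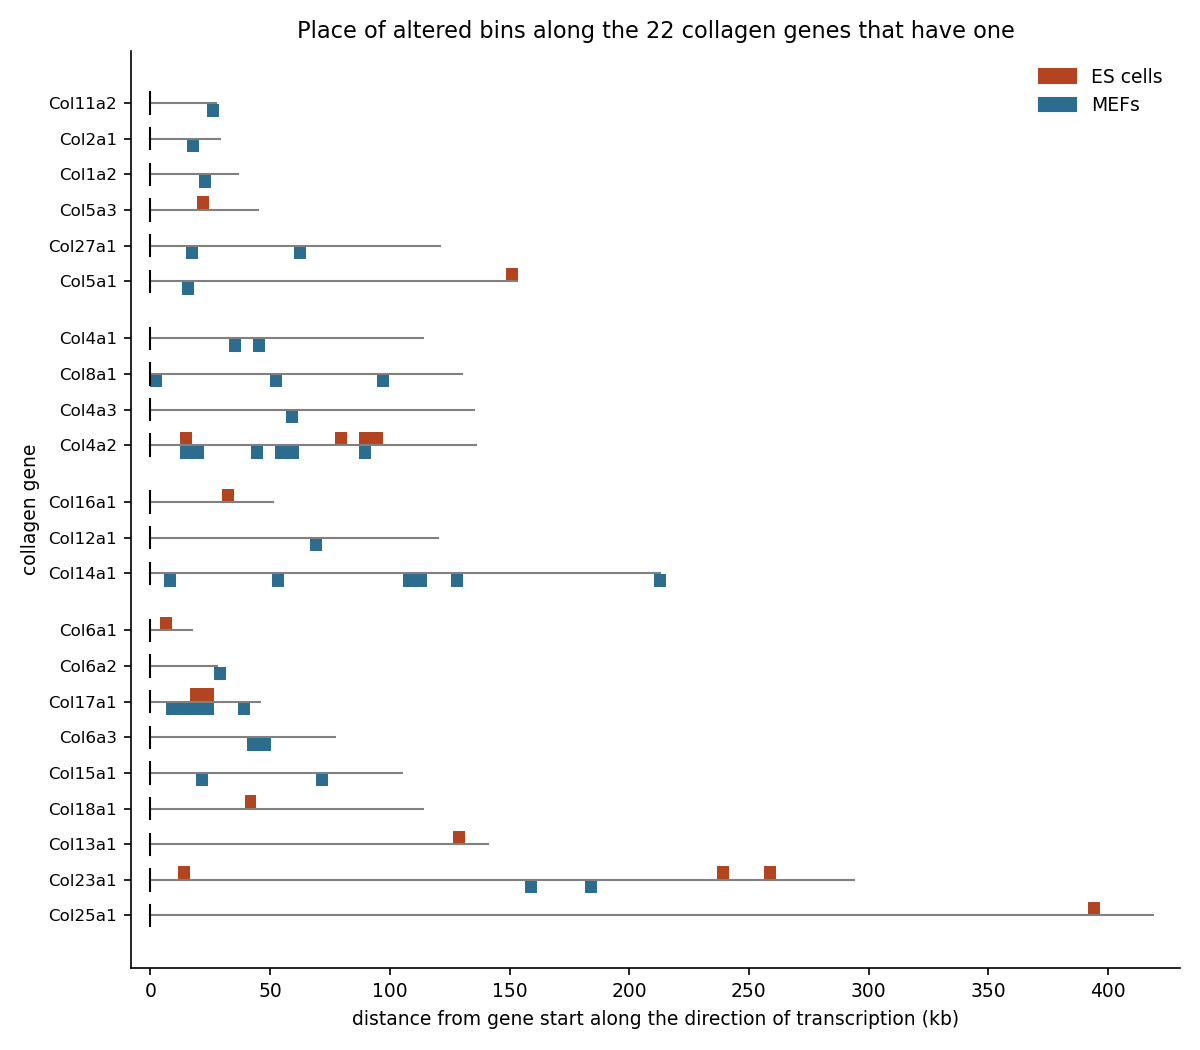
Altered bins along the 22 collagen genes that have one, with the distance from the gene start in kb along the direction of transcription on the x axis; grey lines are gene bodies, blocks above a line are ES bins and blocks below are MEF bins, each 5 kb wide and drawn to scale. A single block covers a gene start, the MEF bin of Col8a1; Col17a1 has 2 adjoining ES blocks above 4 adjoining MEF blocks.

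Of the FACIT genes, 1 of 9 had an ES bin (3.26 expected) and 2 of 9 had a MEF bin (2.74 expected). Col14a1 (chromosome 15, 55139305 to 55352358, plus strand), a collagen of the fibril surface, had 0 ES bins and 6 of the 7 MEF bins of the class. The MEF bins were centred 8.20, 53.2, 108, 113, 128 and 213 kb from the start. They include a bin near the start, a central group of 3 with 2 that touch (from 55245001 and from 55250001) and the last exon, 48. As many MEF bins were found in 39 of the 679 genes of like length. The 6 bins had a median of 8.4 CpG per kb, close to the 7.8 of the unlisted bins of the gene. The flanking 100 kb on each side had 3 ES bins and 0 MEF bins. On chromosome 15, 3.17% of gene-window bins were altered in ES cells and 4.24% in MEFs, and the part of this in the Col14a1 result was not tested. Col22a1, also on chromosome 15 and longer than Col14a1 at 238 kb, had 0 bins on either list.

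Col12a1, a close relative of Col14a1, had 1 MEF bin over exons 33 to 37 of 66 (chromosome 9, 79495001 to 79500000). Col16a1 had the only ES bin of the class, over exons 45 to 48 of 70 (chromosome 4, 129755001 to 129760000), at 19.2 CpG per kb. The cartilage genes Col9a1, Col9a2 and Col9a3, which encode the 3 chains of type IX collagen, had 0 bins, as did Col19a1, Col20a1 and Col22a1. Col19a1 is the longest FACIT gene at 326 kb, a length at which 49.1% of like genes had an ES bin and 50.2% had a MEF bin.

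The remaining collagens were the class most often altered in ES cells. Of 10 genes, 6 had an ES bin (3.61 expected) and 5 had a MEF bin (3.1 expected). The ES count came mainly from the transmembrane collagens, with 4 of 4 genes (1.65 expected) and 7 of the 9 ES bins of the class. In MEFs 2 of these 4 had bins (1.53 expected), again 7. The class is rich in CpG, with a median of 11 per kb over its bins against 7.0 to 8.4 in the remaining classes. From the listed share of all gene-window bins of the same CpG density group, 10.4 ES bins and 9.34 MEF bins were expected, and 9 ES bins and 12 MEF bins were observed, so at matched CpG density the ES bins of this class were not in excess. By the same measure the fibrillar genes had 2 ES bins against 5.74 expected and 6 MEF bins against 5.42, and the FACIT genes had 1 ES bin against 4.86 and 7 MEF bins against 5.07. The network genes had 4 ES bins against 5.25 expected and 12 MEF bins against 5.0 expected, 6 of the 12 at Col4a2.

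Col17a1 (chromosome 19, 47720834 to 47766584, minus strand) had the highest share of MEF bins of the members, with 2 ES bins (18.2%) and 5 MEF bins (45.5%) of the 11 in its window. The highest ES share was that of Col6a1, with 1 of 5 bins. Both ES bins were among the MEF bins. The ES bins adjoin (chromosome 19, 47740001 to 47750000) and touch exons 10 to 23 of 54. The MEF bins touch exons 3 to 23 and 37 to 46, and 4 of them adjoin (47740001 to 47760000). As many ES bins were found in 149 of the 2571 genes of like length, and as many MEF bins in 3 of them. All 5 listed bins lay in the densest CpG group of the genome, between 15.0 and 18.4 CpG per kb, and above the 14.4 median of the unlisted bins of the gene. The bin with the start, at 14.6 CpG per kb, was on neither list. In the 100 kb on each side, 3 ES bins and 2 MEF bins of 40 were listed. On chromosome 19, 3.25% of gene-window bins were altered in ES cells and 5.11% in MEFs, the highest MEF share of the 20 chromosomes; its part in the Col17a1 count was not tested.

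The other transmembrane genes are long. Col23a1 (chromosome 11, 51103422 to 51397420, plus strand) had 3 ES bins and 2 MEF bins and shared none between the lists. The ES bins were centred 14.1, 239 and 259 kb from the start, in an intron near the start, at exon 5 and at exons 6 and 7 of 29 (from 51115001, 51340001 and 51360001). The MEF bins were centred between them, at 159 and 184 kb, in introns (from 51260001 and 51285001). As many ES bins were found in 78 of the 481 genes of like length and as many MEF bins in 152, so neither count stands far from genes of its size. Col13a1 had 1 ES bin over exons 37 to 39 of 42 (chromosome 10, 61310001 to 61315000), which at 22.2 CpG per kb was the densest of the 49 distinct bins. Col25a1, the longest member at 419 kb and best known from neurons, had 1 ES bin at exon 31 of 38 (chromosome 3, 130275001 to 130280000).

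Type VI collagen is a product of connective tissue cells, assembled from the chains of Col6a1 and Col6a2 with one more, such as that of Col6a3. Col6a1 had 1 ES bin over exons 4 to 17 of 35 (chromosome 10, 76180001 to 76185000). Col6a2 had 1 MEF bin across its 3′ end (chromosome 10, 76055001 to 76060000), and Col6a3 had 2 touching MEF bins over exons 8 to 17 of 43. Of the 3 genes, 1 had an ES bin (0.779 expected from genes of like length) and 2 had MEF bins (0.495 expected). None was altered in both, where 5.9% of all genes were, and 3 genes are too few to show a difference. Among the multiplexins, which lie in and beside basement membranes, Col18a1 had 1 intronic ES bin (chromosome 10, 76585001 to 76590000), and Col15a1 had 2 MEF bins, 1 intronic (chromosome 4, from 47240001) and 1 over exons 15 to 19 of 40 (from 47290001). Col7a1, the gene of the anchoring fibrils of skin, had 0 bins.

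**Figure D3:**
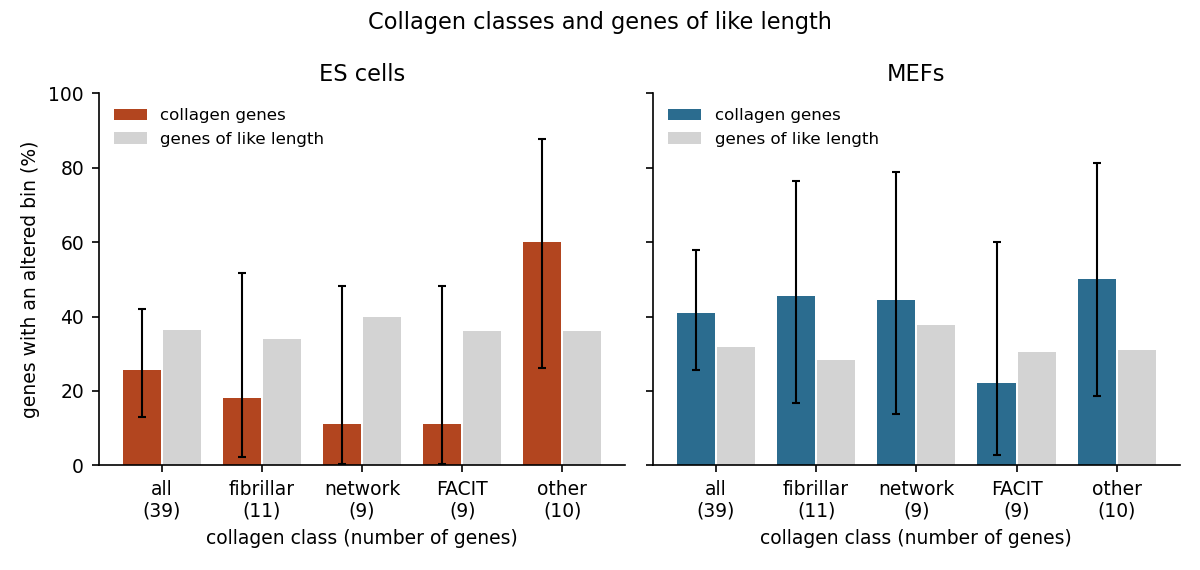
Percentage of collagen genes with an altered bin, over all 39 and by class, in ES cells (left panel) and MEFs (right panel); coloured bars are collagen genes with exact 95% binomial intervals and grey bars are the share expected from genes of like length. All intervals take in the grey bar, and the highest coloured bar is that of the other collagens in ES cells, at 60.0%.

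By place, all 16 ES bins and all 37 MEF bins touched the gene body, and no bin was altered through the upstream 5 kb alone. Of the 65 promoter bins (within 1 kb of the start of any gene model) in the windows, 0 were on the ES list, which allows a share of up to 4.62%, and 1 was on the MEF list (1.54%). In all gene windows 3.11% of promoter bins were altered in ES cells and 2.41% in MEFs, so a difference at promoters was not detectable with 65 bins. Exon bins made up 12 of the 16 ES bins and 21 of the 37 MEF bins (56.8%), with 53.1% exon bins in the windows as a whole. Intron bins were 4 in ES cells and 15 in MEFs. Over all gene windows, exon bins made up 48.4% of ES bins and 33.8% of MEF bins, with 37.0% exon bins in those windows. A raised exon share among ES bins was thus not particular to collagen genes. In ES cells, exon bins were listed less often in collagen windows than in all gene windows (2.27% against 3.37%). In MEFs they were listed more often (3.98% against 2.17%), and neither difference was tested. Altered collagen bins held a median of 241.5 exonic bases in ES cells and 147 in MEFs, against 73 in the 945 unlisted bins. Exonic bases were not counted over all gene windows. Classed by the midpoint of each bin instead, 2 ES bins and 2 MEF bins were exonic, and 14 ES bins and 33 MEF bins were intronic. The 24 members of at least 50 kb were divided into 3 equal parts from start to end. Of the 12 ES bins with their midpoint in the body, 2 lay in the first part, 4 in the middle part and 6 in the last part. Of the 27 MEF bins, 10 lay in the first part, 15 in the middle part and 2 in the last part. Over all genes of that size, leaving out the 7 models that contain 10 or more other genes, the first, middle and last parts held 33.9%, 30.2% and 36% of ES bins and 36.6%, 33.4% and 30% of MEF bins. Col4a2 and Col14a1 held 11 of the 27 MEF bins, and without them 5, 9 and 2 MEF bins remained in the 3 parts, with 1, 2 and 5 ES bins.

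Altered collagen bins were richer in CpG than the other bins of the family, as altered bins were over all genes. Median CpG density stood at 14.3 per kb for the ES bins of the family and at 11.4 per kb for its MEF bins, and at 8.8 per kb for all 994 window bins. Over all gene windows it stood at 13.0 for ES bins, 11.6 for MEF bins and 8.6 for all bins. When all bins of the genome were divided into 10 equal groups by CpG density, 8 of the 124 collagen bins in the densest group were altered in ES cells (6.45%) [2.83% to 12.3%], against 6.22% of such bins in all gene windows. In MEFs it was 12 of 124 (9.68%) [5.1% to 16.3%], against 4.02%. Of these bins, 2 in ES cells and 5 in MEFs were at Col17a1, and 2 in ES cells and 2 in MEFs were at Col4a2. Without Col4a2, Col14a1 and Col17a1, 4 of 100 such bins were altered in ES cells and 5 in MEFs. In groups 6 to 8 the ES share of collagen bins was 0.761% [0.157% to 2.21%], against 2.21% over all gene windows, and the MEF share was 3.81% [2.15% to 6.2%], against 2.58%. In groups 1 to 5, 0 of 306 collagen bins were altered in ES cells [0.0% to 1.2%], against 0.3% over all gene windows. In MEFs 2 were altered (0.654%) [0.0793% to 2.34%], against 0.617%, so neither count differed detectably from all gene windows. Taking the CpG group of each bin into account, 26.2 ES bins and 24.8 MEF bins were expected at the members, which puts the observed counts at 0.61 times the expectation in ES cells and 1.49 times in MEFs. Without the same 3 genes the 10 ES bins were 0.429 times the 23.3 expected and the 20 MEF bins were 0.897 times the 22.3 expected. The expectation kept the bin-rich genes of all gene windows, so this shows how much the 3 genes weigh and is no result about the other members.

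The CpG-richest bin of each member's window was unlisted in every case, in ES cells and in MEFs. Col4a1 and Col4a2 share theirs, so these were 38 distinct bins, with a median of 20.4 CpG per kb, and 21 of them were promoter bins. With 39 genes, 0 allows a share of up to 7.69%, and over all genes 3.56% of densest bins were on the ES list and 2.51% on the MEF list, so a difference from other genes was not detectable. The bin that holds the gene start was on the ES list for 0 of 39 members and on the MEF list for 1 (Col8a1), against 3.10% of all genes in ES cells and 2.39% in MEFs.

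**Figure D4:**
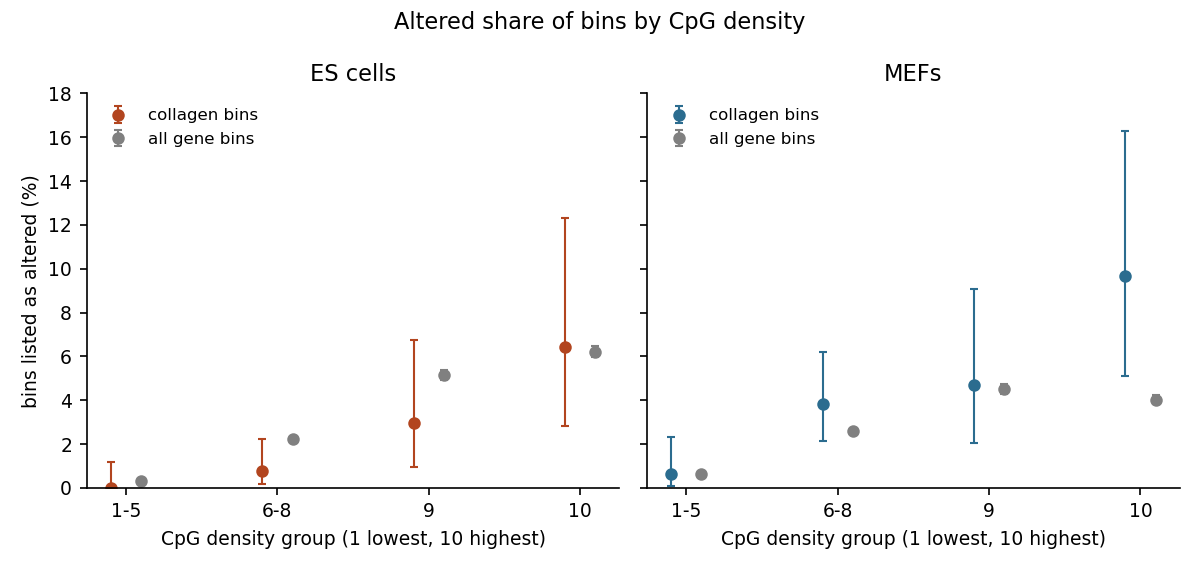
Percentage of bins altered in ES cells (left panel) and MEFs (right panel) by CpG density group of the genome, for bins in collagen windows (coloured) and bins in all gene windows (grey), with exact 95% binomial intervals. The coloured ES point of groups 6 to 8 stands at 0.761%, below the grey one at 2.21%, and the coloured MEF point of the densest group stands at 9.68%, above the grey one at 4.02%.

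Collagen maturation genes, a list of 45 enzymes, chaperones, processing proteases, receptors and collagenases, were set beside the chains themselves. Of the 44 found in the annotation, 12 had an ES bin (27.3%) [15.0% to 42.8%], against 27.0% expected from genes of like length, and 20 had a MEF bin (45.5%) [30.4% to 61.2%], against 20.1% expected. The list was chosen with earlier results of these data known, so its MEF excess is a description and not an independent finding. ES bins were found at 1 of 8 genes of prolyl hydroxylation, 2 of 5 for lysyl hydroxylation and glycosylation, 3 of 8 for procollagen processing, 2 of 5 lysyl oxidases, 3 of 8 receptors, 0 of 6 collagenases and gelatinases, and 1 of 4 chaperones and secretion factors (Serpinh1, which encodes the collagen chaperone of the endoplasmic reticulum). In MEFs the numbers in the same order were 5, 3, 5, 2, 3, 1 (Mmp2) and 1 (Sparc). Expected counts by role were not computed.

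The maturation genes with 2 or more bins in a list were 25.5 kb (Loxl1) to 209 kb (Adamts3) long. Their separate counts were not set against genes of like length. Adamts3, a protease that removes the N-terminal propeptide of procollagen, had 0 ES bins and 4 MEF bins. Of its relatives, Adamts2 had 0 ES bins and 2 MEF bins, and Adamts14 had 2 ES bins and 2 MEF bins. Bmp1, which removes the C-terminal propeptide, had 1 ES bin and 2 MEF bins. The prolyl 3-hydroxylase gene P3h2 (Leprel1 in the annotation) and the collagen galactosyltransferase gene Colgalt2 (Glt25d2 in the annotation) each had 0 ES bins and 3 MEF bins. The lysyl hydroxylase gene Plod2 had 1 ES bin and 3 MEF bins, the crosslinking enzyme gene Loxl1 had 0 ES bins and 3 MEF bins, and the collagen-binding integrin gene Itga1 had 0 ES bins and 2 MEF bins. None of the 13 ES bins of the 44 genes was also on the MEF list. Of all 8545 ES bins 406 were, so 13 bins are too few to show a difference.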

How the data were processed

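5hmC capture libraries of LSH knockout and wild-type ES cells and MEFs, 1 per group, were sequenced. BWA and SAMtools 1.3.1 with build mm9 are named in the submitters' processing notes, without a role. The counting method, the differential caller, its threshold and the depth are not stated in the labels. What the authors deposited is other than a measured value, namely the chromosome, start and end of each bin with a running number. Running bin numbers of all 8545 ES and 8972 MEF bins matched the 5 kb grid of the reference (NCBIM37, the assembly also called mm9). Steps that needed sequence used bins with at most 50% undetermined bases.

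Genes were protein-coding, lincRNA and processed transcript models, the longest per symbol. Each bin was a promoter, exon, intron or intergenic bin, in that order, by any overlap. Expected counts summed, over members, the share of called genes in the same of 10 length groups, or of listed bins in the same CpG group. No test was run, since each group has 1 library. Members with 3 or more distinct bins, a bin on both lists or a promoter bin were described in full, and maturation genes with 2 or more bins in a list were named. Members and lists were chosen with earlier results of these data known. The counting was tested on simulated lists. Positions are 1-based. Python 3.11.15, numpy 2.4.6, pandas 2.3.3, scipy 1.17.1 and matplotlib 3.10.9 were used.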

Additional observations from a re-analysis of the deposited data

How the results depend on the processing

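Of 96 recomputed values, 88 stayed within 1.5 times the reported count or inside its interval. The window (body only, or 10 kb upstream), the overlap needed (2500 bases, or the bin midpoint), the gene models compared and the length and CpG groups left the ratio to genes of like length between 0.639 and 0.752 in ES cells and between 1.21 and 1.33 in MEFs. Without bins shared with other genes, 9 genes and 13 bins were altered in ES cells and 16 genes and 36 bins in MEFs. Without Col14a1, Col17a1 and Col4a2, added after the values were seen, 10 ES bins and 20 MEF bins remained of 16 and 37. Classed at the bin midpoint, exon bins numbered 2 in ES cells and 2 in MEFs, intron bins 14 in ES cells and 33 in MEFs, with 0 promoter bins and 2 bins past a gene in MEFs, so the exon majority rests on counting any overlap. No stricter threshold could be tried, because the lists carry no score. No paired analysis was possible because each group has 1 library. With depth unknown, an unlisted bin may be one where no change could be detected.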

Other observations

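Collagen genes of the annotation outside the 39 members were Col28a1, Col6a4, Col6a5 and Col6a6. Col6a6 (chromosome 9, 105591747 to 105730415), a gene for an alternative chain of type VI collagen, had 1 ES bin and 9 MEF bins of the 30 in its window, more MEF bins than any member. The ES bin was also on the MEF list. As many MEF bins were found in 2 of the 1190 genes of like length. Of the 9 MEF bins, 8 touched the gene body and 1 lay upstream of it. Its neighbour Col6a5 had 0 ES bins and 2 MEF bins, and Col6a4 and Col28a1 had 0 on both lists. Col6a6 was singled out after its values were seen.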
